A study of Mus musculus with 64 samples.

Results

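Siglec receptors are sialic acid-binding lectins of the immune cell surface, and 5 of the 25239 genes in the deposited count table were followed here by their symbols: *Siglech*, *Siglec1*, *Siglece*, *Siglecg* and *Cd33*. They were read in 62 RNA-seq libraries of retinal microglia, the resident macrophages of the retina. Each library held 600 tdTomato-high live cells sorted from 1 retina of a Cx3cr1CreER:R26-tdTomato +/- mouse on the C57BL/6 background, so that the Cx3cr1 promoter drove the Cre and every group, controls included, carried the reporter and had received tamoxifen. Mice were naive, or were collected at day 12 (D12) or day 28 (D28) after intravitreal injection of AAV2 without a transgene. The dose was 2 µL at 1e10 genome copies (gc)/eye. Per the study's methods, the vector carried an oligonucleotide sequence (io2) that inhibits TLR9, a sensor of viral DNA. Females and males aged 3, 9 and 18 months were used. The naive mice were not injected, so that the vector and the injection cannot be told apart in these libraries. Counting naive, D12 and D28 in that order, there were 4, 4 and 4 libraries from females and 3, 4 and 3 from males at 3 months, 3, 3 and 4 from females and 2, 4 and 3 from males at 9 months, and 3, 4 and 3 from females and 4, 3 and 4 from males at 18 months.

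Siglecs bind sialic acids, the sugars that cap glycoproteins and glycolipids of vertebrate cells, and most of them pass an inhibitory signal through motifs called ITIMs in their cytoplasmic tail, which recruit phosphatases. *Siglece* and *Siglecg* encode receptors of this family with or close to that design. The protein of *Siglech* has no such tail and pairs with the adaptor DAP12 (*Tyrobp*). That of *Siglec1* (CD169, sialoadhesin) is a long adhesion receptor of macrophages with no inhibitory motif. *Siglech* is used as a marker of microglia and of plasmacytoid dendritic cells, *Siglec1* marks macrophages at tissue borders and is induced by type I interferon, *Siglecg* is best known from B cells, and human CD33 is linked to the risk of Alzheimer disease.

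Of the 5 genes, 4 lie on mouse chromosome 7 of GRCm38, the assembly that mm10 names. *Siglecg* spans positions 43408204 to 43418358 on the plus strand, *Cd33* 43524216 to 43544428 on the minus strand and *Siglece* 43651070 to 43660161 on the minus strand, while *Siglech* lies apart from them at 55768178 to 55778925 on the plus strand. *Siglec1* is on chromosome 2, from 131069220 to 131086765 on the minus strand. No other gene of GENCODE M21 overlaps any of these spans. The 3 members that fell together after injection are shown here by the 250 bases before their RefSeq transcription start (GRCm38.p6), written 5′ to 3′ on the strand of the gene. They are *Siglech* at chr7:55767934-55768183, *Siglece* at chr7:43660162-43660411 and *Cd33* at chr7:43533172-43533421, the last with its start inside the GENCODE span. Capitals mark GAGGAA on either strand, the purine-rich core that PU.1 and other ETS factors of myeloid cells bind, and TTCNNNGAA, the letters of an interferon gamma-activated site.
Siglech: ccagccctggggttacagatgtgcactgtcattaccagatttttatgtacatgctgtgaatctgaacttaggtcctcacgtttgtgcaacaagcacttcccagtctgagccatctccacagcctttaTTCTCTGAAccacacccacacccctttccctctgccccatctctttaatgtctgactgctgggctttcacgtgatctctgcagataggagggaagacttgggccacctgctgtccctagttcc
Siglece: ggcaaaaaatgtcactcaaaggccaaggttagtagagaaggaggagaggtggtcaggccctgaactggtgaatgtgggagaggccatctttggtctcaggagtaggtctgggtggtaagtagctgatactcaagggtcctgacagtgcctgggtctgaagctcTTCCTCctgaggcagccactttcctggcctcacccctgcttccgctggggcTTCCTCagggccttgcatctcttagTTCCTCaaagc
Cd33: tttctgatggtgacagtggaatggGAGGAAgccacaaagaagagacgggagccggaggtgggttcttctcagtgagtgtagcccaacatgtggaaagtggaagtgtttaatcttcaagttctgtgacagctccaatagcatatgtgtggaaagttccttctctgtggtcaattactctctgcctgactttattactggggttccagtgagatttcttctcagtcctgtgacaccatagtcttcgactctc
GAGGAA was found 3 times before *Siglece*, 87, 36 and 11 bases ahead of the start, once before *Cd33* at 226 bases, and not before *Siglech*. It is present in 23.3% of 32851 promoter windows of the same length. TTCNNNGAA, present in 7.02% of the windows, was found before *Siglech* alone of the 3, at 123 bases. GAAANNGAAA, the letters of an interferon-stimulated response element, was searched on both strands as well, is present in 2.98% of the windows and was found before none of the 3. The motifs did not overlap each other in these windows. These matches describe the letters only.

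*Siglech* was by far the most abundant of the 5 in naive microglia, also when the level was divided by the length of the joined exons. On that scale naive libraries held 717 CPM (counts scaled to a common library size) per kilobase of *Siglech*, 34.9 of *Cd33*, 34.0 of *Siglece*, 2.17 of *Siglecg* and 0.210 of *Siglec1*. Depth ranged from 1468000 to 9836000 counts per library with a median of 4189000, and 3 counts, taken as the least a library can show, corresponded to between 0.361 and 2.12 CPM. *Siglech*, *Siglece* and *Cd33* were above 3 counts in all 62 libraries, *Siglecg* in 56 and *Siglec1* in 43. All 5 passed the filter on low counts in the fit of all libraries. The label microglia was checked by 15 genes of homeostatic microglia (*P2ry12*, *Tmem119*, *Cx3cr1* and others), whose summed level lay between 38350 and 67480 CPM in naive libraries.

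At D12 after AAV, 3 of the 5 receptors fell, 1 rose and 1 did not pass the test when all ages and sexes were pooled. *Siglech* fell to 28.5% of its naive mean, *Siglece* to 34.1% and *Cd33* to 60.0%, whereas *Siglec1* rose to 506% of a naive mean that is itself near the limit of detection. Of all 13584 genes tested, 15.8% were called lower and 20.2% higher in this comparison. The test was edgeR's quasi-likelihood test on 18 groups of age, sex and stage, with the Benjamini-Hochberg adjusted p under 0.05 over all genes as the threshold. In bulk libraries of sorted cells, fewer cells that carry a transcript and less of it in each cell cannot be told apart. Per the study's methods the other eye of each mouse went to other assays, so that each retina stands for 1 mouse and the p-values measure the spread between mice.

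The level of *Siglech* separated naive libraries from those of both later stages without overlap, whereas D12 and D28 overlapped. Naive libraries lay between 1933 and 2865 CPM with a median of 2372 (mean 2369 ± 283 SD, n = 19). At D12 they lay between 290.5 and 1757 CPM with a median of 610.5 (mean 693 ± 383 SD, n = 22), and at D28 between 471 and 1850 CPM with a median of 1197 (mean 1251 ± 293 SD, n = 21). The lowest naive library was thus above the highest library of either later stage. For this and the separations by group below, the share of all genes that separate as well was not counted. In edgeR the D12 difference was -1.93 (SE 0.12, log2 scale, adjusted p 4.63e-20).

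By age and sex, the 3-month-old females had 1981, 2176, 2367 and 1933 CPM of *Siglech* when naive, 655, 643, 498 and 909 at D12, and 1446, 1497, 1467 and 1197 at D28. Males of that age had 2503, 2220 and 2126 CPM when naive, 442, 753, 604 and 492 at D12, and 1259, 1279 and 1623 at D28. In both sexes the D28 libraries stood between the other stages with no overlap. Among 9-month-old females the naive values were 2108, 2432 and 2377 CPM, those at D12 were 290.5, 302 and 312, and those at D28 were 1143, 1290, 1182 and 1139. The D12 libraries of these females were the lowest group of all 18, and their range lay below that of the next group, 18-month-old males at D12. The 9-month-old males had 2372 and 1938 CPM when naive, 484, 1135, 445 and 686 at D12, and 986, 1850 and 1622 at D28, so that here D12 and D28 overlapped through D12 replicate 2. At 18 months, females had 2762, 2306 and 2865 CPM when naive, 1757, 1520, 617 and 1086 at D12, and 933, 471 and 1179 at D28. This was the only group of age and sex in which the D28 mean (861 CPM) lay under the D12 mean (1245 CPM), and both ranges overlapped. The 18-month-old males had 2732, 2623, 2662 and 2527 CPM when naive, 711, 572 and 340 at D12, and 1104, 1121, 1049 and 1436 at D28. Ordered by their means, the 6 naive groups took the first 6 places among the 18 groups, and only 3 of the 17 neighbouring pairs in that order had ranges apart.

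**Figure D1:**
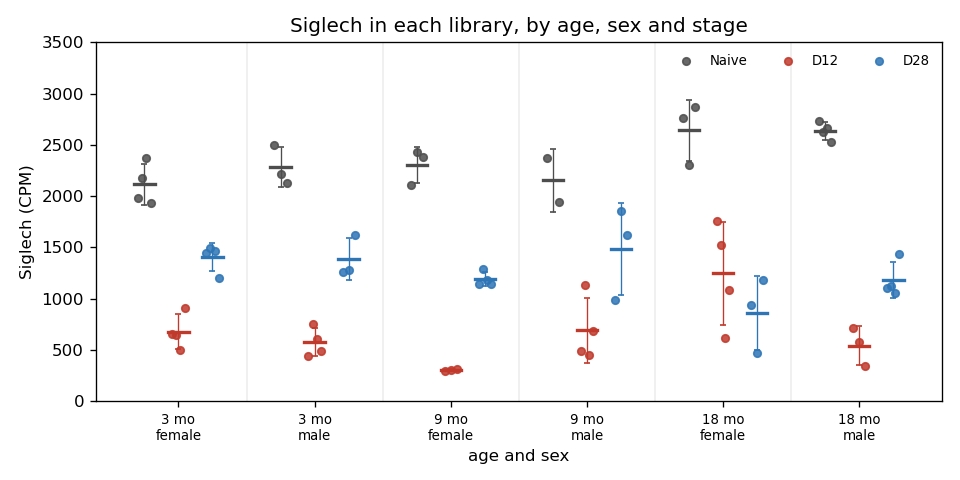
*Siglech* in CPM (vertical axis) in every library, by age and sex (horizontal axis) and stage (colour); points are libraries, thick lines are means and thin bars are ± 1 SD. All naive libraries, from 1933 to 2865 CPM, lie above all D12 and D28 libraries.

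*Siglece*, an ITIM-bearing receptor of microglia and other myeloid cells, followed the same course at a lower level. Naive libraries ranged from 27.8 to 114.5 CPM with a median of 60.3 (mean 61.9 ± 19.4 SD, n = 19), D12 libraries from 7.68 to 55.0 CPM with a median of 18.6 (mean 21.9 ± 13.1 SD, n = 22) and D28 libraries from 15.3 to 58.2 CPM with a median of 33.3 (mean 32.6 ± 11.7 SD, n = 21). The D12 difference was -1.62 (SE 0.17, log2 scale, edgeR adjusted p 1.73e-11). Every D12 library was lower than every naive library in 5 of the 6 groups of age and sex.

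The clearest separation of *Siglece* was in 9-month-old females, with 75.2, 52.8 and 47.3 CPM when naive, 12.6, 8.01 and 10.1 at D12, and 15.9, 37.8, 33.3 and 35.8 at D28. The group that overlapped was 18-month-old females, with 51.6, 27.8 and 54.3 CPM when naive, 49.3, 55.0, 21.0 and 14.5 at D12, and 25.1, 19.0 and 39.3 at D28. Here D12 replicates 1 and 2 were at the naive level and replicates 3 and 4 below it. In the other groups the means when naive, at D12 and at D28 were 74.2, 21.5 and 42.3 CPM (3-month-old females), 57.6, 16.7 and 39.7 (3-month-old males), 86.1, 22.3 and 27.1 (9-month-old males) and 56.4, 22.8 and 27.1 (18-month-old males).

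*Cd33*, a receptor of myeloid cells, fell as well. Naive libraries ranged from 99.9 to 372 CPM with a median of 188 (mean 212 ± 72.2 SD, n = 19), D12 libraries from 66.6 to 198 CPM with a median of 130.0 (mean 129 ± 34.0 SD, n = 22) and D28 libraries from 84.8 to 277 CPM with a median of 160.0 (mean 167 ± 41.3 SD, n = 21). The difference at D12 was -0.72 (SE 0.12, log2 scale, edgeR adjusted p 1.44e-06), and D12 libraries lay below all naive libraries in 5 of the 6 groups. The exception was again 18-month-old females, with 99.9, 160.1 and 171 CPM when naive and 198, 173, 115 and 113 at D12.

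*Siglec1* was the only one of the 5 that rose at D12. Of the naive libraries, 9 of 19 were at or under 3 counts, against 2 of 22 at D12 and 8 of 21 at D28, so that its fold change rests on few reads and on the prior count of the fit. The fitted difference at D12 was 2.47 (SE 0.55, log2 scale, edgeR adjusted p 0.000229). Mean levels were 1.42 ± 1.52 CPM (SD, n = 19) in naive, 7.45 ± 7.10 (n = 22) in D12 and 2.06 ± 1.88 (n = 21) in D28 libraries.

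The highest *Siglec1* values were at D12 in 18-month-old females, with 2.62, 5.75, 12.6 and 30.3 CPM against 2.06, 1.24 and 1.26 when naive. The 18-month-old males had 12.4, 7.43 and 3.71 CPM at D12 against 0.239, 0, 1.82 and 0 when naive, and 9-month-old females had 4.58, 17.6 and 9.46 against 2.96, 0 and 3.14. In these 3 groups every D12 library was above every naive library. The 9-month-old males had 17.3, 0, 9.17 and 3.85 CPM at D12 against 2.65 and 2.44 when naive, the 3-month-old females 2.04, 7.40, 4.11 and 3.08 against 5.93, 1.09, 0.698 and 0.433, and the 3-month-old males 4.77, 0, 2.39 and 3.55 against 0, 0.652 and 0.426. In these the stages overlapped, in 2 groups through a D12 library with no count, which allows a level of up to 3 counts there.

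*Siglecg* varied widely at a low level, and its stages overlapped in all 6 groups at D12. Naive libraries ranged from 1.21 to 17.1 CPM (mean 5.38 ± 4.28 SD, n = 19), D12 libraries from 0.318 to 23.9 CPM (mean 6.87 ± 6.00 SD, n = 22) and D28 libraries from 0 to 6.76 CPM (mean 3.53 ± 2.22 SD, n = 21). Its D12 difference of 0.26 (SE 0.37, log2 scale) had an edgeR adjusted p of 0.658.

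**Figure D2:**
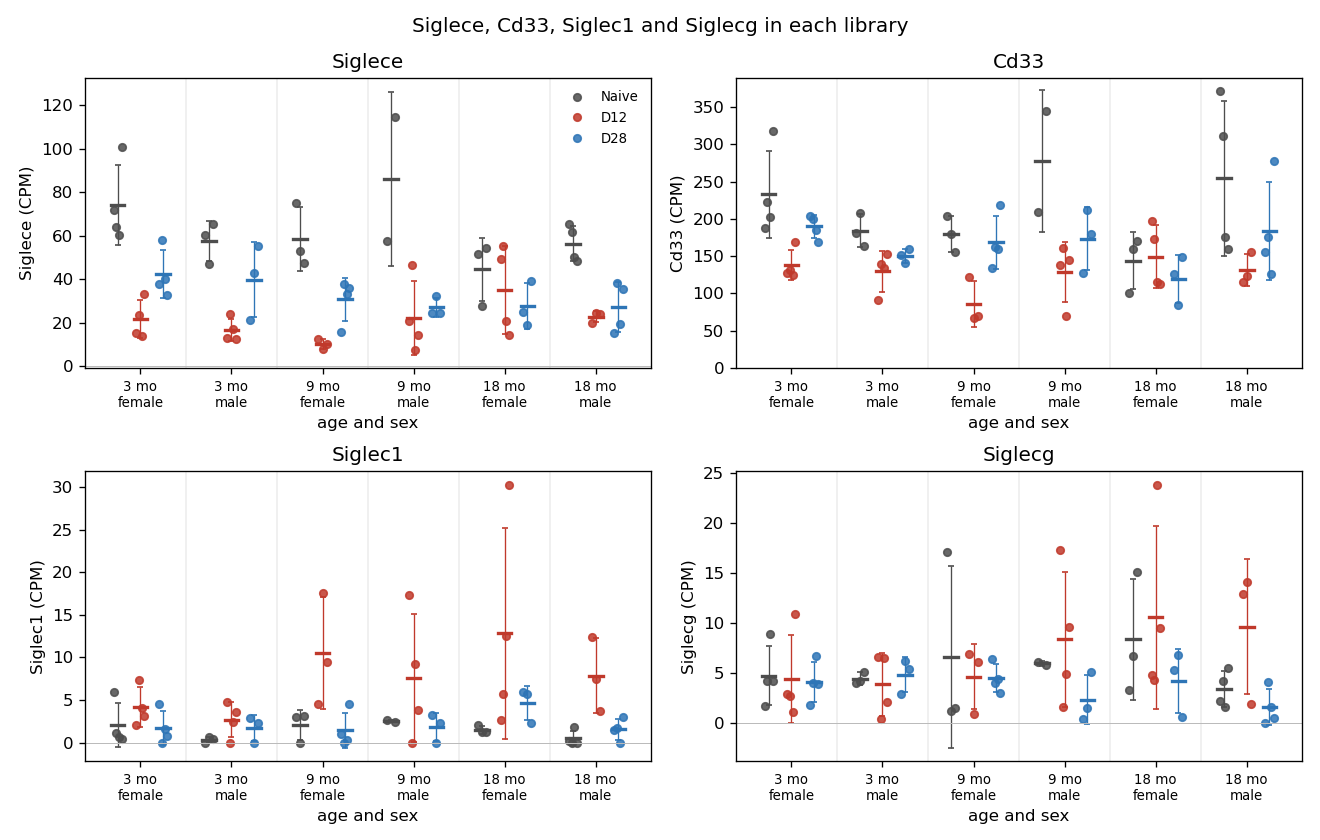
*Siglece*, *Cd33*, *Siglec1* and *Siglecg* in CPM (vertical axes) in every library, by age and sex (horizontal axes) and stage (colour); points are libraries, thick lines are means and thin bars are ± 1 SD. In 5 of 6 groups every D12 library is below every naive library for *Siglece*, and likewise for *Cd33*, and *Siglec1* reaches 30.3 CPM in 18-month-old females at D12.

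At D28 the same 3 receptors were below naive, by less. *Siglech* was at 53.1% of the naive mean (-0.93, SE 0.12, log2 scale, edgeR adjusted p 1.04e-08), *Siglece* at 51.6% (-0.94, SE 0.17, edgeR adjusted p 3.18e-05) and *Cd33* at 77.5% (-0.35, SE 0.12, edgeR adjusted p 0.0377). Of all genes tested, 6.52% were called lower and 9.00% higher at D28. The call of *Cd33* was lost in 15 of the 62 fits that left out 1 library, and over all 62 its difference lay between -0.40 and -0.27. The naive libraries behind this were 3-month-old female replicate 4, 3-month-old male replicate 2, 9-month-old female replicate 1, 9-month-old male replicate 2 (-0.27), and 18-month-old replicates 2 and 3 of the females and 1 and 2 of the males. The D28 libraries were replicate 4 of the 3-month-old females, 2 of the 3-month-old males, 1 of the 9-month-old females, 2 of the 9-month-old males, 3 of the 18-month-old females, and 1 and 3 of the 18-month-old males. *Siglec1* (0.69, SE 0.54) and *Siglecg* (-0.66, SE 0.38) did not pass the test, with edgeR adjusted p of 0.467 and 0.268. D28 libraries lay below all naive libraries in 6 of 6 groups for *Siglech*, in 4 for *Siglece* and in 1 for *Cd33*. How many of all genes separate in this way was not counted.

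Between D12 and D28, 3 receptors rose and 1 fell, where 7.92% of all genes were called higher and 10.3% lower. *Siglech* rose by 1.002 (SE 0.11, log2 scale, edgeR adjusted p 2.30e-09), *Siglece* by 0.68 (SE 0.17, edgeR adjusted p 0.00206) and *Cd33* by 0.38 (SE 0.12, edgeR adjusted p 0.0157), each toward its naive level. *Siglec1* fell by 1.77 on the log2 scale (SE 0.49, edgeR adjusted p 0.00716). *Siglecg* had a difference of -0.92 (SE 0.37, edgeR adjusted p 0.0720). These 3 comparisons share libraries. With the library titled 18-month-old male D28 replicate 4, whose time-point label reads D12, placed at D12, *Cd33* was no longer called (0.27).

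**Figure D3:**
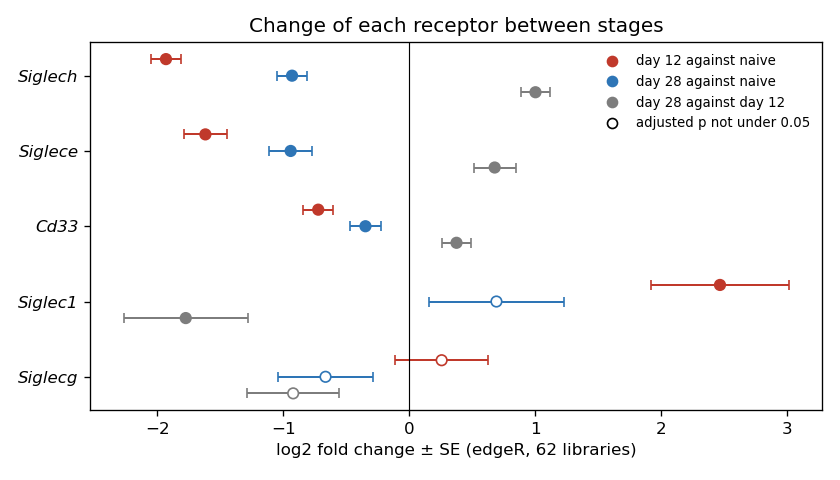
Fitted log2 fold change (horizontal axis, bars ± 1 SE) of the 5 receptors (vertical axis) in the fit of 62 libraries for day 12 against naive, day 28 against naive and day 28 against day 12. Filled points have an adjusted p under 0.05; *Siglech*, *Siglece* and *Cd33* lie left of 0 at both days against naive, and *Siglec1* lies right of it at day 12.

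Within each age and sex, D12 was tested against a 2-fold change with glmTreat, a stricter test that asks whether a change exceeds a stated size (log2 fold change of 1). Of 30 tests of the 5 receptors 5 were called, all lower, at an adjusted p under 0.05. An unadjusted p under 0.05 was reached by 11 tests, and DESeq2 called 4. *Siglech* was called in 3-month-old females (-1.65, SE 0.21, edgeR adjusted p 0.0246), where 0.755% of all genes were called lower, and in 3-month-old males (-1.99, SE 0.18, edgeR adjusted p 0.000237), where 1.01% were. In 9-month-old females both *Siglech* (-2.91, SE 0.24, edgeR adjusted p 8.20e-05) and *Siglece* (-2.48, SE 0.40, edgeR adjusted p 0.0136) were called, against 0.754% of all genes. The fifth call was *Siglech* in 18-month-old males (-2.26, SE 0.25, edgeR adjusted p 0.000547), against 1.30% of all genes.

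The call of *Siglech* in 3-month-old females was the weakest, since it was lost when any of 5 of the 12 libraries was left out (naive replicates 2 and 3 and D12 replicates 1, 2 and 3, -1.63, -1.59, -1.63, -1.62 and -1.52) and with DESeq2. That of *Siglece* in 9-month-old females was lost without D12 replicate 2 (-2.38) or replicate 3 (-2.51). With the library of 2 day labels at D12, that of *Siglech* in 18-month-old males was lost at -1.76. *Siglece* in 3-month-old females just missed the threshold (-1.79, SE 0.29, edgeR adjusted p 0.0505).

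No receptor was called at D12 in 9-month-old males, where 0.181% of all genes were called lower and *Siglech* had a difference of -1.63 (SE 0.43, edgeR adjusted p 0.487) and *Siglece* of -1.96 (SE 0.53, edgeR adjusted p 0.340). Nor was any called in 18-month-old females, where 0% of 11159 genes were called lower by edgeR. None was called higher there either, although 485 genes had an unadjusted p under 0.05 and DESeq2 called 8. In these females *Siglech* differed by -1.07 (SE 0.38), *Siglece* by -0.34 (SE 0.48), *Cd33* by 0.08 (SE 0.30) and *Siglec1* by 3.11 (SE 0.90) on the log2 scale.

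The 3 D12 libraries with the lowest summed level of 20 interferon-stimulated genes were also those with the 3 highest values of *Siglech* and of *Siglece*. They are 9-month-old male replicate 2, with 1484 CPM of the interferon-stimulated genes, 1135 CPM of *Siglech* and 46.5 CPM of *Siglece*, and 18-month-old female replicates 2 and 1, with 1765 and 2115 CPM of the interferon-stimulated genes, 1520 and 1757 CPM of *Siglech*, and 55.0 and 49.3 CPM of *Siglece*. The other 18-month-old females at D12, replicates 3 and 4, had 7636 and 12060 CPM of these genes and 617 and 1086 CPM of *Siglech*. Replicate 4 thus had the highest interferon sum of all libraries and the next highest *Siglech* at D12 after those 3 libraries, so that the order did not hold throughout. In replicates 1 and 2 of these females the 9 T cell markers summed to 0 and 12.8 CPM, and in replicates 3 and 4 to 423 and 207 CPM. In 9-month-old male replicate 2 they summed to 100.8 CPM, near the D12 median of 108 CPM. The 15 homeostatic genes summed to 38660 CPM in that male library and to 39060 and 46720 CPM in female replicates 2 and 1, the 3 highest sums at D12, where the median was 20840 CPM. Over all libraries the interferon-stimulated genes summed to between 882 and 2423 CPM in naive, 1484 and 12060 CPM in D12, and 1378 and 3146 CPM in D28 libraries. Without 9-month-old male D12 replicate 2 and the library of 2 day labels, a choice made after seeing the data, 6 of the 30 tests were called. The share of all genes called in that setting is not given here.

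**Figure D4:**
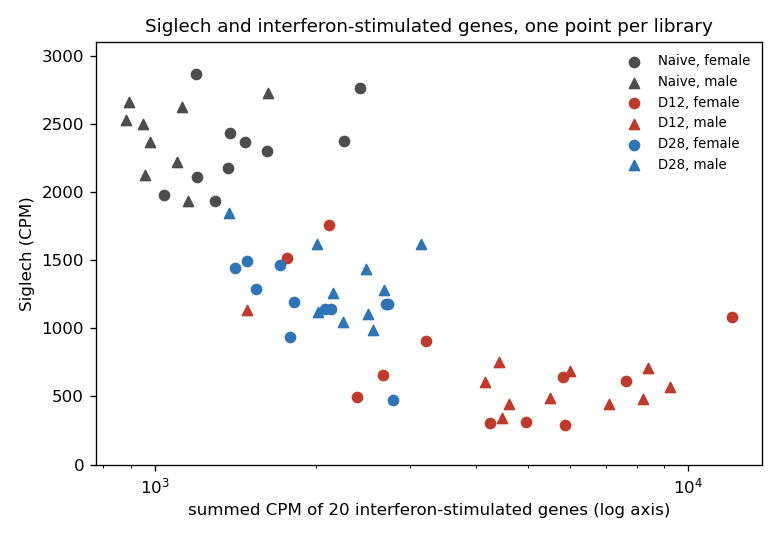
*Siglech* (vertical axis, CPM) against the summed CPM of 20 interferon-stimulated genes (horizontal axis, log scale), 1 point per library, coloured by stage and shaped by sex. Naive libraries lie at the upper left, and the 3 D12 libraries with the lowest sums, from 1484 to 2115 CPM, have the 3 highest D12 values of *Siglech*. The next highest D12 value, 1086 CPM, is in the library with the highest sum, 12060 CPM.

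At D28 within age and sex, edgeR's glmTreat called none of the 30 tests of the receptors, with 1 unadjusted p under 0.05 and 0 calls by DESeq2. Over all genes and the 6 comparisons, 0.402% of tests were called. The fitted differences of *Siglech* were negative in 6 of 6 groups, from -0.51 in 9-month-old males to -1.61 in 18-month-old females.

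Age within a stage and sex was tested at an adjusted p under 0.1. Of 60 tests of the receptors 1 was called, where 0.0980% of all tests in these comparisons were, 7 had an unadjusted p under 0.05 and DESeq2 called 2. *Siglech* at D12 was lower in 9-month-old than in 3-month-old females, with means of 302 and 676 CPM (-1.16, SE 0.28, log2 scale, edgeR adjusted p 0.0535), in a comparison that called 0.370% of genes lower. The call was lost without 3-month-old female D12 replicates 2 (-1.19) or 4 (-0.98) or 9-month-old female D12 replicates 2 (-1.13) or 3 (-1.16). In 18-month-old females at D12 *Siglech* was above the 3-month-old level by 0.89 (SE 0.25), with an edgeR adjusted p of 0.158. Among naive mice its differences from 3 months lay between -0.09 and 0.32, and none passed the test.

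Neither interaction called a receptor in edgeR at an adjusted p under 0.1. For sex and day, 0 of 30 tests were called, with 3 unadjusted p under 0.05, 0 calls by DESeq2 and 0.0124% of all tests called. For age and day, 0 of 40 were called, with 4 unadjusted p under 0.05, 1 call by DESeq2 and 0.0655% of all tests called. The D12 change of *Siglech* in males minus that in females was 1.30 (SE 0.50, edgeR adjusted p 0.977) at 9 months and -1.18 (SE 0.46, edgeR adjusted p 0.656) at 18 months on the log2 scale, and was -0.34 (SE 0.28, edgeR adjusted p 0.729) at 3 months. These errors leave room for differences of over 2-fold at 9 and 18 months.

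Collection took 2 days, each with all 3 stages, and the corrected counts have the effect of the day removed. In the uncorrected counts the D12 difference of *Siglech*, averaged over groups, was -1.98 on the first day and -1.95 on the second on the log2 CPM scale, that of *Siglece* -1.39 and -2.13, that of *Cd33* -0.45 and -0.89 and that of *Siglec1* 1.31 and 2.47. At D28 *Siglech* differed by -1.11 and -0.81, *Siglece* by -1.15 and -0.94 and *Cd33* by -0.29 and -0.38. All of these averages kept the direction of the pooled fit on both days. Single groups did not always do so. On the first day, group differences at D12 ranged from -1.25 to 0.70 for *Cd33* and from -0.42 to 4.42 for *Siglec1*. *Cd33* at D28 reached 0.25 on the first day and 0.21 on the second, whereas *Siglech* was below naive in every group.

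Among the other Siglecs of the mouse, *Cd22* rose and stayed high. It encodes an inhibitory receptor best known from B cells, and went from 14.4 ± 6.61 CPM (SD, n = 19) when naive to 39.8 ± 17.5 (n = 22) at D12 and 41.2 ± 15.4 (n = 21) at D28. Its edgeR adjusted p was 1.74e-07 at D12 (1.49, SE 0.22, log2 scale) and 5.38e-07 at D28 (1.53). *Mag*, the Siglec of myelin, and *Siglecf* did not pass edgeR's test against naive at either day, so that 1 of 3 tested genes of this list was called higher. DESeq2 called *Siglecf* lower at D28 (-0.46, DESeq2 adjusted p 0.0494), where edgeR gave -0.47 (edgeR adjusted p 0.0549), and for D28 against D12 edgeR called it lower (-0.47, edgeR adjusted p 0.0399). The transcript of *Siglec15* did not pass the filter on low counts.

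The enzymes that attach sialic acids to glycans, the sialyltransferases, were mostly lower or not called at D12: of 16 tested, 6 were lower, 1 higher and 9 not called, with a median log2 fold change of -0.48 against 0.02 over all genes. *St3gal6* fell from 407 to 149 CPM (-1.57, SE 0.12, edgeR adjusted p 6.48e-16) and *St3gal5*, the GM3 synthase, from 147 to 49.7 CPM (-1.64, SE 0.18, edgeR adjusted p 2.75e-11), and at D28 they were at 254 and 75.6 CPM. *St6galnac3*, called higher, was near the limit of detection, with means of 0.283 CPM when naive and 0.288 at D12, and DESeq2 called 7 of the 16 lower and 0 higher. At D28, 5 of the 16 were lower and 1 higher, where 6.52% of all genes were called lower and 9.00% higher. The higher gene, *St8sia3*, was near the limit of detection, with means of 0.119 CPM when naive and 0.574 at D28. DESeq2 called 6 lower and 0 higher at D28.

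Genes of sialic acid metabolism, which cover its synthesis, activation, modification and breakdown, moved both ways at D12. Of 7 tested, 2 were higher, 3 lower and 2 not called. The shares over all genes were 20.2% higher and 15.8% lower. *Slc35a1*, the Golgi transporter of CMP-sialic acid, fell (-0.67, SE 0.12, edgeR adjusted p 1.61e-05), as did *Gne*, the enzyme of the first step of synthesis (-0.74, SE 0.27, edgeR adjusted p 0.0236). *Renbp* (0.46, SE 0.10, edgeR adjusted p 0.000272) and *Nans*, the sialic acid synthase (0.40, SE 0.12, edgeR adjusted p 0.00880), rose. At D28 edgeR called 0 of the 7, with 2 unadjusted p under 0.05, and DESeq2 called 0. Of the sialidase genes and their lysosomal partner *Ctsa*, 1 of 3 tested was higher at D12: *Neu1*, the lysosomal sialidase that removes sialic acids, rose from 42.4 to 83.3 CPM (0.97, SE 0.13, edgeR adjusted p 8.43e-09) and was still higher at D28 (58.7 CPM, 0.47, edgeR adjusted p 0.00706).

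Downstream of the receptors, of 9 tested genes of ITIM signalling 2 were higher, 1 lower and 6 not called at D12. Over all genes tested, 20.2% were called higher and 15.8% lower, shares near those of this list. *Inpp5d*, the phosphatase SHIP1, fell (-0.40, SE 0.10, edgeR adjusted p 0.00174), and *Ptpn6*, the phosphatase SHP-1, did not pass the test (0.30, SE 0.13, edgeR adjusted p 0.0611). *Socs3*, a feedback inhibitor of cytokine signalling, rose from 5.34 to 37.2 CPM (2.69, SE 0.29, edgeR adjusted p 3.58e-11), and *Ptpn22*, a phosphatase of lymphocytes and myeloid cells, rose as well (1.61, SE 0.25, edgeR adjusted p 3.59e-07). At D28, 2 of the 9 were higher and 0 lower, where 9.00% of all genes were called higher and 6.52% lower.

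Of 11 tested genes of the activating ITAM pathway, 3 were higher, 1 lower and 7 not called at D12. At D12 this list, too, had shares near those over all genes, 20.2% higher and 15.8% lower. *Tyrobp*, the adaptor that pairs with the *Siglech* protein, was at 4804 CPM when naive, 5110 at D12 and 7198 at D28, and passed the test at D28 (0.64, edgeR adjusted p 0.000423) but not at D12 (0.10, edgeR adjusted p 0.648). *Lck* (4.86, SE 0.65, edgeR adjusted p 1.34e-08) and *Fyn* (1.62, SE 0.30, edgeR adjusted p 1.73e-05), kinases best known from T cells, rose at D12, and *Btk*, a kinase of B cells and myeloid cells, fell (-0.42, SE 0.12, edgeR adjusted p 0.00463). At D28, 4 of the 11 were higher and 1 lower, where 9.00% of all genes were called higher and 6.52% lower.

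**Figure D5:**
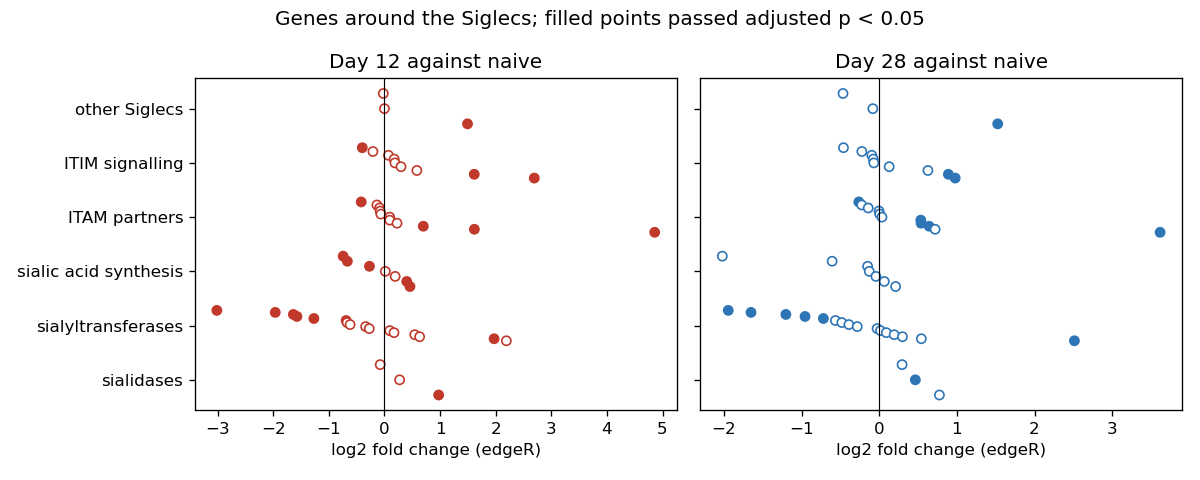
Fitted log2 fold change (horizontal axes) at day 12 and day 28 against naive for tested genes of 6 lists (vertical axis), 1 point per gene, with filled points where the adjusted p was under 0.05. Sialyltransferases have 6 filled points left of 0 at day 12 and 5 at day 28.

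Of the 20 interferon-stimulated genes 19 rose at D12 and 11 at D28, with medians of 1.82 and 0.56 on the log2 scale. *Stat2*, a signal transducer of the type I interferon receptor, went from 25.7 to 133 CPM at D12 (2.44, SE 0.22, edgeR adjusted p 9.27e-14).

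Marker genes of other cells moved with the stages in the same libraries, and their part in the receptor changes was not tested. In the lists below, some tested genes had a very small F statistic in edgeR at D12 and were not called. Their standard errors, which are computed from F, only restate this and lay between 705 (*Cd300c*) and 25208 (*Lyve1*). They were *Cd300c*, *Spib* and *Ly6d* (plasmacytoid dendritic cells), *Lyve1* and *Clec10a* (border macrophages), *Vcan* (monocytes), *Ebf1*, *Cd79a* and *Ms4a1* (B cells), and *Cxcr2* and *Mmp9* (neutrophils). *Lyve1* went from 7.25 to 0.140 CPM without a call by edgeR. All 15 homeostatic genes fell at D12 and 12 at D28, and their summed level ranged from 38350 to 67480 CPM in naive, 11750 to 46720 in D12 and 22200 to 57390 in D28 libraries. For *Siglech*, the plasmacytoid dendritic cell list had 2 of 8 tested genes higher and 0 lower at D12, where 20.2% of all genes were called higher. Sums of that list were 79.2 to 285 CPM in naive, 158 to 525 in D12 and 102 to 395 in D28 libraries. *Ly6d* was at 0 in all naive libraries and *Klk1* at 0 in all D28 libraries. For *Siglec1*, edgeR called 5 of 10 border macrophage genes lower and 1 higher at D12, and DESeq2 called 6 lower and 1 higher. Sums of the border macrophage list were 96.3 to 830 CPM in naive, 81.9 to 533 in D12 and 75.6 to 496 in D28 libraries. *Pf4* went from 116 to 4.85 CPM.

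The monocyte list had 6 of 8 tested genes higher at D12, with sums of 3.49 to 148 CPM in naive, 15.2 to 1158 in D12 and 16.8 to 103 in D28 libraries. *Chil3* was at 0 in all naive and all D28 libraries. The highest sum, 1158 CPM, and the highest *Siglec1*, 30.3 CPM, were in the same library, 18-month-old female D12 replicate 4. The T cell list had 9 of 9 genes higher at D12, with sums of 0 to 177 CPM in naive, 0 to 423 in D12 and 17.7 to 199.6 in D28 libraries. For *Siglecg*, the B cell list had 1 of 4 tested genes lower and 0 higher. The lower gene was *Cd79b*, and edgeR called no other of the 4. Sums of the list were 7.43 to 117 CPM in naive, 14.3 to 92.6 in D12 and 32.05 to 99.1 in D28 libraries, with *Blk* and *Fcmr* at 0 in all naive libraries. Of the neutrophil list edgeR called 0 of 4 tested genes at D12, with 0 unadjusted p under 0.05 and 1 call by DESeq2, with *Ly6g* at 0 in all naive and D12 libraries and sums of 122 to 269, 79.2 to 312 and 116 to 230 CPM in naive, D12 and D28. Photoreceptor transcripts were lower at D12 for 9 of 10 genes, with sums of 794 to 4800, 606 to 3969 and 1168 to 4249 CPM.

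The genes whose log2 CPM ran most alike with each receptor over the 62 libraries are given as a description, since the libraries share stage, depth and collection day. For *Siglech* they were *Inka1* (Pearson's r 0.964), *Klk8* (0.947) and *St3gal6* (0.946). For *Siglece* they were *Selplg* (0.916), *P2ry13* (0.899) and again *St3gal6* (0.889), and for *Cd33* *Ppcdc* (0.883), *Serinc3* (0.881) and *Ifngr1* (0.862). *Siglec1* was most alike to *Irf7* (0.701), *Tmpo* (0.692) and *Parpbp* (0.678). With a smaller prior count of 0.5, 2 of these 3 genes stayed among them, *Irf7* at 0.651 and *Parpbp* at 0.643. *Siglecg* had no gene above 0.519 (*Rpl34*), followed by *Capg* (0.483) and *Gtf3c6* (0.481), and with a smaller prior count 1 of its 3 genes stayed among them.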

How the data were processed

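The authors aligned single-end reads of SMART-Seq v4 libraries to mm10 with STAR (version 2.7.8a per the labels), counted them per gene with featureCounts and removed the effect of the collection day with ComBat_seq. The deposited values are whole-number counts per gene, in 1 table before that correction (64 libraries) and 1 after it (63 libraries). Corrected counts were used. The library labelled 18-month-old female D28 replicate 1, whose sex-linked genes go against its label, was left out. The 9-month-old male D28 replicate 1 was not used here, and the library titled 18-month-old male D28 replicate 4, with a time-point label of D12, was used as D28.

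CPM were taken with edgeR from TMM-scaled library sizes. edgeR 4.0.16 (R 4.3.3) fitted quasi-likelihood models after filterByExpr, with Benjamini-Hochberg adjustment over all genes tested. Each SE is the absolute log2 fold change divided by the square root of the quasi-likelihood F statistic of the plain test. The 3 pooled comparisons used all 62 libraries, the tests by age and sex the libraries of that age and sex, those of age and of age with day all libraries of a sex, and those of sex with day all of an age. glmTreat used a log2 fold change of 1. A list median is over genes tested. The genes named beside the receptors are up to 2 per direction and list with the smallest p at D12, and *Ptpn6*, *Tyrobp*, *Mag*, *Siglecf*, *Pf4* and *Ctsa* were added after their values were seen. Some genes that this rule names are not reported here. The 3 genes most alike to each receptor are by Pearson's r of log2 CPM with a prior count of 2. The receptors and the lists were chosen with earlier results of these data known. DESeq2 1.42.0 was an alternative. The steps were tested on simulated data. Floors of 3 counts cover counting error only, since amplified reads are not independent molecules. Over 79 pairs of libraries within a group, 0 were identical. Exon lengths and coordinates are from GENCODE M21 and promoter windows from RefSeq (GRCm38.p6), which held 1 window or more for 4 of the 5 receptors.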

Additional observations from a re-analysis of the deposited data

Results flagged for a closer look

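In 4 of the 45 sets of 4 libraries of one receptor and group, 1 library stood far from the other 3, and chance alone sets apart about 1 in 20. *Siglech* in 3-month-old females at D28 was 1197 CPM in replicate 4, against 1446 to 1497 CPM in the others. *Cd33* in 3-month-old females at D12 was 168.5 CPM in replicate 4, against 125 to 132 CPM. *Siglec1* was 5.93 CPM in naive 3-month-old female replicate 1, against 0.433 to 1.09 CPM in the others, and 1.82 CPM in naive 18-month-old male replicate 3, against 0 to 0.239 CPM, both at levels of few reads. Groups of 2 or 3 libraries were not examined in this way.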

How the results depend on the processing

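Counts of receptor calls kept within 1.5 times under most alternatives. With the test against a 2-fold change in place of any change, 0 receptors were called at D28 against naive, where every fitted difference was smaller than 2-fold. For D28 against D12, 0 were called as well, although *Siglec1* differed by -1.77 (SE 0.49). Of all genes, 311 and 228 were called in these comparisons in that setting. With the plain test in place of glmTreat, 11 of 30 were called at D12 by age and sex and 2 of 30 at D28. Uncorrected counts without a batch term gave 2 for D28 against D12, 3 at D12 by age and sex and 0 for age. Without a filter, 8 were called at D12 by age and sex. DESeq2 called 2 for age and 1 for age and day. For these last 3 settings the cause was not tested. For the counts by age and sex, by age, and by age and day, the share of all genes called in the same setting is not given here. Changes in these counts are therefore not read as particular to the receptors. Leaving out 1 library at a time gave 4 receptors at D12 against naive, 2 to 3 at D28, 4 to 5 for D28 against D12, 4 to 6 at D12 by age and sex, 0 at D28 by age and sex, 0 to 2 for age, and 0 for both interactions. For age, the count was 0 without 3-month-old female D12 replicates 2 or 4 or 9-month-old female D12 replicates 2 or 3, and 2 without 9-month-old female D12 replicate 1 or 18-month-old female D12 replicate 3. In these refits, models of several ages or sexes kept the dispersion trend of the full fit. No fold change of a receptor called in these comparisons changed sign in any setting. *Cd33* at D28 against naive also lost its call without a filter (-0.34), with uncorrected counts (-0.36, and -0.33 with the collection day in the model) and in the 15 leave-outs. *Siglecg* for D28 against D12 was called by DESeq2 (-0.94) and without a filter (-0.92), and without 3-month-old male D12 replicate 2 (-0.98), 9-month-old male D28 replicate 4 (-1.13), 18-month-old male D12 replicate 3 (-0.999) or D28 replicate 2 (-1.10). Same-numbered replicates did not deviate together (mean r -0.0148 over 464 pairs, 0.00511 over 1348 other pairs). With the replicate block, 4 receptors were called at D12, 3 at D28, 4 for D28 against D12, 4 at D12 by age and sex and 1 for age, and the calls of *Siglech* in 3-month-old females (-1.66) and *Siglece* in 9-month-old females (-2.48) were lost, while *Siglece* in 3-month-old females (-1.83) was gained. Depth limits *Siglec1* and *Siglecg*, which lay near 3 counts in many libraries.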
